A study of Mus musculus with 16 samples.

Results

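The 4 libraries described here are those titled WT with NaCl, chosen by title from the 16 of the series, and they measure the RNA of wild-type LSK cells after vehicle treatment. LSK cells are the lineage-negative, Sca-1-positive, Kit-positive cells of mouse bone marrow. Each library gives a raw count and an FPKM value for 31342 features, of which 30141 are genes. FPKM means fragments per kilobase of counted sequence, scaled by a size set for each library. The labels give the genotype as wild-type for mouse DNMT3A on both alleles and the treatment as 0.9% NaCl, the vehicle of azacitidine. The protocol covers all groups together. Donors with or without the interferon-inducible Mx1-Cre transgene were injected with poly(I:C), a mimic of viral RNA, at 15 µg per g on 3 nonconsecutive days. Their marrow was collected 4 weeks afterwards, pooled in equal parts with wild-type CD45.1 marrow and transplanted into CD45.1 recipients. Vehicle was then given over 2 weeks in blocks of 5 days with 2 days between them. The baseline here is therefore that of transplanted marrow from donors exposed to poly(I:C). Another poly(I:C) schedule also stands in the protocol without the animals it applies to. It is not stated whether the WT donors carried Mx1-Cre, whether the sort set donor cells apart from the CD45.1 cells, or whether the 4 libraries come from separate mice, so the spread between them may in part be technical.

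LSK cells hold the haematopoietic stem cells, which renew themselves and repopulate the marrow of a transplanted host, and the multipotent progenitors that arise from them. The stem cells are mostly quiescent and depend on signals of the niche such as stem cell factor, the ligand of Kit. The progenitors divide more often and gain Flt3 and Cd48 as they lose stem cell antigens. Early progenitors are known to transcribe genes of several blood lineages at a low level before they commit, which is known as lineage priming. Bulk RNA averages over all cells of a library, and in it fewer cells of a type and less RNA per cell cannot be told apart.

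The libraries held 39303293 to 45429603 counts, of which 2.97 to 5.21% fell on repeat families. A count of 3, taken as the floor of detection, amounts to 0.0673 to 0.0743 FPKM for a gene with 1000 counted bases. Replicates 1 and 2 resembled each other (Pearson r of log2 values across genes 0.981), as did replicates 3 and 4 (0.981), while the other pairs gave 0.966 to 0.975; genes are not independent replicates. Several gene groups divide the libraries in this way, so the value of every library is given for the genes that matter. Replicate 3 stood apart by its immunoglobulin reads, which took 5.45% of gene counts, against 0.457% in replicate 1, 0.463% in replicate 2 and 1.02% in replicate 4. Cytosolic ribosomal protein genes took 3.57, 4.66, 2.21 and 2.73% of gene counts in replicates 1 to 4. No pair of libraries agreed within counting error, the lowest chi-square per gene being 38.4.

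Of the 30141 genes, 11200 (37.2%) reached an FPKM of at least 1 in each of the 4 libraries, the criterion for a detected gene used here. Among protein-coding genes 9754 of 16970 were detected (57.5%), against 671 of 4018 processed pseudogenes and 321 of 3908 long intergenic and antisense RNAs. The shares of 37.2% of all genes and 57.5% of protein-coding genes are the background for the counts of detected list members below. At the other end, 3725 genes had no count in any library. Expression was concentrated in few genes: 613 genes with a mean of 100 to 1000 FPKM held 33.9% of the summed FPKM, and 16 genes at 1000 or more held 18.2%. Of the latter share, 8.54% of the summed FPKM came from Gm23935, a gene model of 57 bases, and immunoglobulin genes of replicate 3 added to it. By counts, which do not weigh short genes up, the 100 most abundant genes held 15.1%, against 30% by FPKM. Levels below are the mean FPKM ± SD over the 4 libraries (n = 4), and values in order are those of replicates 1 to 4. A percentile is the rank of a gene among all 30141, with 100 for the highest. No group of samples was compared with another, so no test was made.

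The antigens that define the gate were abundant. Kit (chromosome 5, 75574916 to 75656722, plus strand), the receptor of stem cell factor, stood at 47.8, 44.7, 101.5 and 117.3 FPKM, a mean of 77.8 ± 37.0 in the 97.1th percentile. Ly6a, which encodes Sca-1, stood at 41.2, 38.9, 106.2 and 77.2 FPKM (mean 65.9 ± 32.1). For both genes replicates 3 and 4 lay above replicates 1 and 2. Of the 31-base words in the transcripts of Ly6a, 31.9% occur in other genes too, so its reads may be divided among relatives in the Ly6 family. Cd34, a sialomucin of progenitors and of endothelium that was not used in the sort, was the highest of the set at 170.7, 153.5, 184.3 and 159.0 FPKM (mean 166.9 ± 13.7), with 4.97% of its words shared. Flt3, the receptor that marks lymphoid-primed multipotent progenitors, stood at 71.4, 94.5, 126.1 and 110.6 FPKM (mean 100.7 ± 23.4). Flt3 lay above Ly6a in each library. It lay above Kit except in replicate 4, and Kit lay above Ly6a except in replicate 3, so the place of Kit between them is not firm.

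The promoters of these genes and of 2 priming genes described further on differ in base composition, and they are shown because the share of CG-rich promoters differed between expressed genes and genes with little or no expression. Each line gives the 250 bases upstream of a RefSeq transcription start (GRCm38.p6), 5′ to 3′ on the strand of the gene, with every CG dinucleotide, the target of DNA methyltransferases, in capitals. The windows are chr5:75574737-75574986 for Kit (plus strand, for 1 of 2 listed starts), chr5:147400490-147400739 for Flt3 (minus strand), chr1:194938571-194938820 for Cd34 (plus strand), chr11:87793534-87793783 for Mpo (plus strand) and chr19:41029025-41029274 for Dntt (plus strand).
Kit: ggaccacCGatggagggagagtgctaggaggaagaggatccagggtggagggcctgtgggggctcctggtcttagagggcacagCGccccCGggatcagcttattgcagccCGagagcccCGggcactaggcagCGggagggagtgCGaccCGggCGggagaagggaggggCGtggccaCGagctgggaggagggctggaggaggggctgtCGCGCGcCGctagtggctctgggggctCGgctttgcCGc
Flt3: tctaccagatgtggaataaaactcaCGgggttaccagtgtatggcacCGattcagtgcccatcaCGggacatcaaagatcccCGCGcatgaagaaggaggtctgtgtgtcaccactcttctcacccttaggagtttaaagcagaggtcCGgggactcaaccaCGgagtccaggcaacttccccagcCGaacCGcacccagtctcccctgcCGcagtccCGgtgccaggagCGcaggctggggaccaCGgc
Cd34: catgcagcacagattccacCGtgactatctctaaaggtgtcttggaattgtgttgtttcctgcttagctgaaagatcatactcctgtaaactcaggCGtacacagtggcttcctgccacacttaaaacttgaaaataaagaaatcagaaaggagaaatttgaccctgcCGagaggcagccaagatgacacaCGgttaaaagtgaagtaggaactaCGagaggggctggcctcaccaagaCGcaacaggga
Mpo: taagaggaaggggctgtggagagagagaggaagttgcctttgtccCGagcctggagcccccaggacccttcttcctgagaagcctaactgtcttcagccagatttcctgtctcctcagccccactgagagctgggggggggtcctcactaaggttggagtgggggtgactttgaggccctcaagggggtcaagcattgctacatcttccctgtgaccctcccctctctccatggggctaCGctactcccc
Dntt: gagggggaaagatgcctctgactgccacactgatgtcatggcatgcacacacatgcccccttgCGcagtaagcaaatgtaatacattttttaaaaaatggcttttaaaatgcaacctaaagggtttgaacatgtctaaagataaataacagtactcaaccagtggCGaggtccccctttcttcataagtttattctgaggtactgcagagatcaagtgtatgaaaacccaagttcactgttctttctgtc
The Kit stretch holds 17 CG dinucleotides and the Flt3 stretch 13. The Cd34 stretch holds 6, and those of Mpo and Dntt hold 2 each, although the RNA of Mpo and Dntt was more abundant on average than that of Kit and Flt3.

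**Figure D1:**
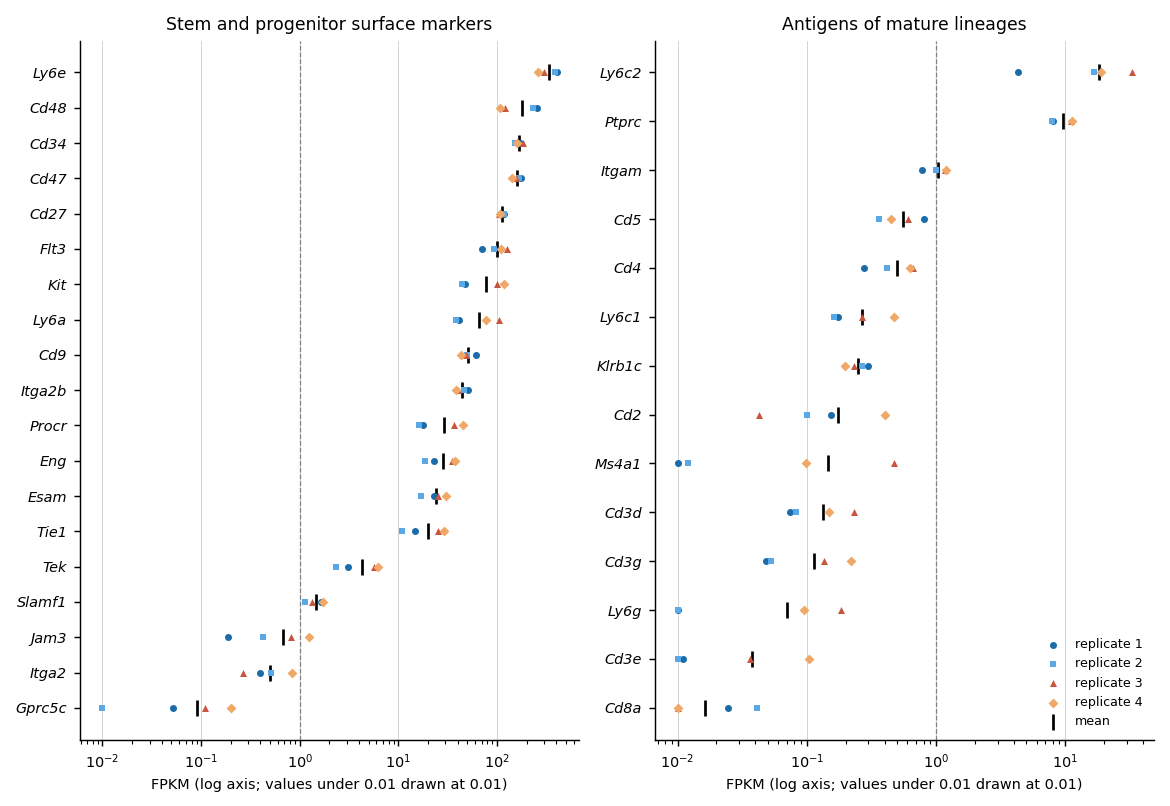
FPKM in each of the 4 libraries (symbols; vertical bar, mean) on a log axis, for the stem and progenitor surface markers (left) and the antigens of mature lineages (right) that are named in the text; the dashed line is the detection level of 1. Cd34 sits near 167 in all 4 libraries, whereas Kit, Ly6a and Procr spread with replicates 3 and 4 higher, and most mature antigens sit below 1.

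Of 29 surface markers of stem cells and multipotent progenitors, 26 were detected, 21 of them at a mean of 10 FPKM or more, with a median of 29.1 FPKM against 0.32 over all genes. Ly6e, a small GPI-anchored relative of Sca-1, was the most abundant at 336.9 ± 68.8 FPKM. Cd48, a Slam family protein that is gained on leaving the stem cell state, followed at 254.3, 230.3, 122.0 and 107.2 FPKM (mean 178.4 ± 74.6). Replicates 1 and 2 were the high ones for Cd48, opposite to Kit. Cd47, the signal that restrains phagocytosis, stood at 160.6 ± 13.6 FPKM, and Cd27, a member of the TNF receptor family present on early progenitors, at 112.5 ± 7.39.

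Antigens of the most primitive cells gave a graded picture. Procr, the protein C receptor EPCR used to enrich stem cells, stood at 17.8, 16.2, 37.0 and 45.3 FPKM (mean 29.1 ± 14.4). The endothelial and stem cell adhesion molecule Esam reached 24.0 ± 5.42 FPKM, endoglin (Eng) 28.6 ± 9.20 and Tie1, an endothelial receptor kinase, 19.9 ± 8.55. Procr and Eng were higher in replicates 3 and 4 than in replicates 1 and 2, without overlap. Slamf1, which encodes CD150, stood far lower at 1.64, 1.13, 1.34 and 1.73 FPKM (mean 1.46 ± 0.28), so that the transcript of Cd48 exceeded that of Slamf1 in each library. The members below detection were Jam3 (0.67 ± 0.47 FPKM), Itga2 (0.50 ± 0.24) and Gprc5c (0.090 ± 0.086).

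Over the whole surface, 45 of 93 listed genes whose symbol is Cd and a number were detected (48.4%, against 57.5% of protein-coding genes). A mean of 100 FPKM or more was reached by 7 of them. These 7 were Cd74, Cd48, Cd34, Cd47, Cd81, Cd53 and Cd27. With the longest transcript in place of all exons Cd63, Cd52 and Cd24a would also reach 100, at 252, 151 and 107. Cd74 stood at 78.6, 84.1, 584.8 and 199.6 FPKM, so that it was under 100 in replicates 1 and 2 and highest in replicate 3. The pattern also takes in a few genes that are not antigens, such as Cd2bp2, a splicing protein. Of 18 chemokine receptors only Cxcr4, the receptor that holds stem cells in the marrow, and Ccr7, known from lymphocyte migration, were detected. Cxcr4 stood at 10.6, 14.9, 13.1 and 15.0 FPKM (mean 13.4 ± 2.08) and Ccr7 at 4.43 ± 0.36.

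Of 45 cytokine and growth factor receptors and their ligands, 28 were detected (62.2%), near the 57.5% of all protein-coding genes. Beside Flt3 and Kit, the most abundant included Ifngr1, the ligand-binding chain of the interferon gamma receptor (80.0 ± 8.55 FPKM), Crlf2, the receptor chain of the cytokine TSLP (60.7 ± 8.67) and Csf3r, the G-CSF receptor (54.4 ± 11.2). Il2rg, the chain shared by many interleukin receptors, stood at 53.1 ± 10.8 FPKM and Csf2ra, the GM-CSF receptor alpha chain, at 50.7 ± 2.74. Both chains of the type I interferon receptor, which senses the interferon that poly(I:C) evokes, were detected, Ifnar2 at 36.7 ± 1.04 and Ifnar1 at 13.3 ± 3.03 FPKM. The receptors of the committed branches were lower. Epor, the erythropoietin receptor, stood at 12.4 ± 5.20 FPKM, Csf1r, the macrophage growth factor receptor, at 3.54 ± 0.27 and Il7r, on which lymphocyte development depends, at 1.42, 1.40, 1.16 and 0.80, so that it missed detection in replicate 4 alone. Kitl, the ligand of Kit, was not detected (0.0069 ± 0.0052 FPKM).

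Chemokine receptors, adhesion molecules and other receptors for the marrow niche were detected in 23 of 39 cases (59.0%), near the 57.5% of all protein-coding genes. Selplg, the P-selectin ligand, led at 81.8 ± 10.3 FPKM, followed by the integrin beta 1 chain Itgb1 (64.9 ± 11.4). Among the lowest were the cadherin Cdh2 at 0.019 ± 0.034 FPKM and Cxcr5, a chemokine receptor of mature lymphocytes, at 0.032 ± 0.051.

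**Figure D2:**
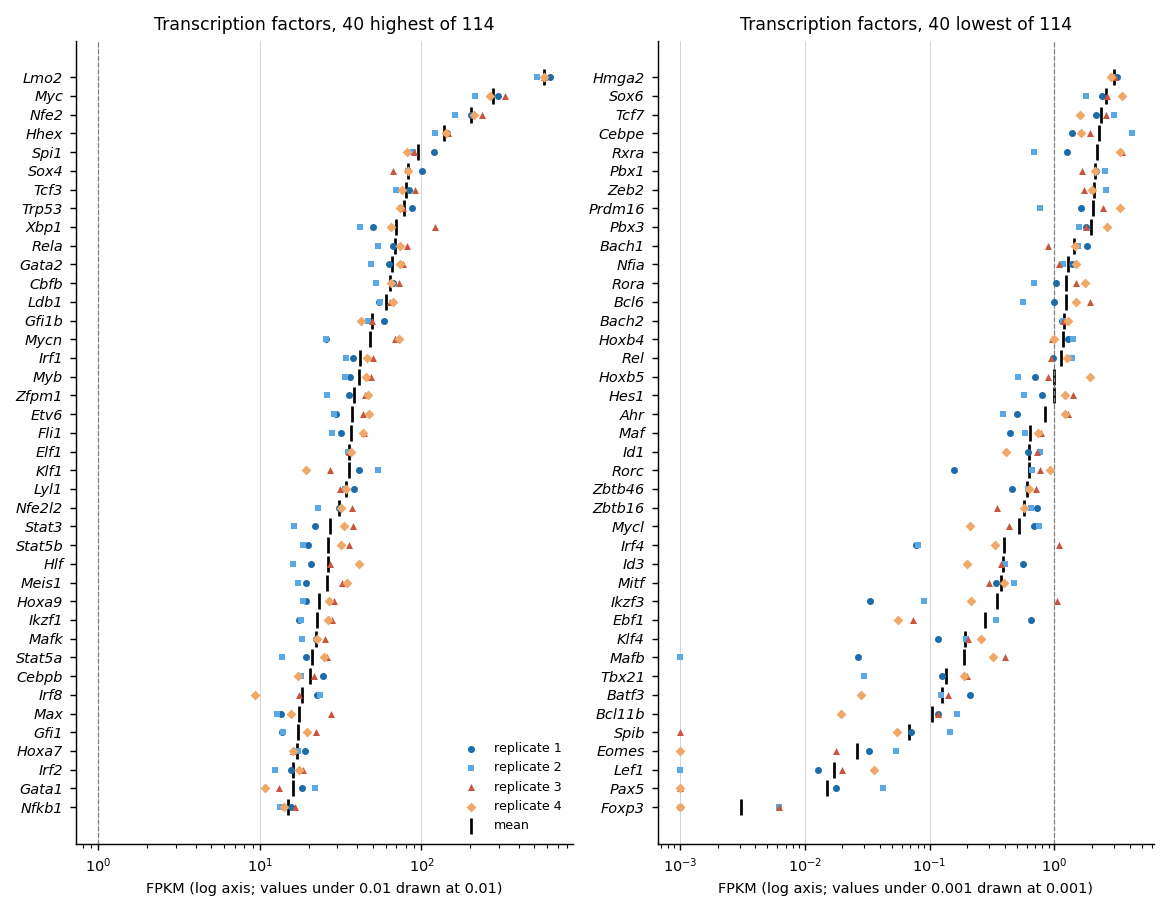
FPKM in each library (symbols; vertical bar, mean) on log axes for the 40 highest (left) and the 40 lowest (right) of 114 haematopoietic transcription factors; the 34 between them are not drawn. Lmo2 is the highest, between 517.8 and 625.8 in the 4 libraries, and Lef1, Pax5 and Foxp3 are the lowest; values under 0.001 are drawn at the left edge.

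Of 114 transcription factors with a known role in blood, 83 were detected, 48 at 10 FPKM or more and 4 at 100 or more. Lmo2, the bridging protein of the complex that stem cell factors form on DNA, was by far the highest at 625.8, 517.8, 573.6 and 574.2 FPKM (mean 572.9 ± 44.1, 99.9th percentile). Myc, the driver of growth and ribosome synthesis, stood at 275.9 ± 48.9 FPKM, Nfe2, which acts in megakaryocytes and erythroid cells, at 203.3 ± 31.8 and Hhex, a homeobox factor of early progenitors, at 137.7 ± 11.1. The coefficient of variation of Lmo2 and Hhex was under 10%, so these levels were nearly shared by the 4 libraries. Next came Spi1, which encodes PU.1 of the myeloid and lymphoid branches (94.95 ± 17.0 FPKM), Sox4 (83.0 ± 13.5) and Tcf3, the E protein E2A (80.0 ± 9.05). This order depends on the length used: with the longest transcript in place of all exons 8 factors instead of 4 would reach 100 FPKM and Sox4 would be 11th instead of 6th, while Lmo2 would stay the highest. Of the sequence words of Sox4, 54.7% occur in other genes.

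The partners of Lmo2 in the stem cell complex stood at differing levels. Gata2 reached 62.9, 48.4, 76.8 and 73.3 FPKM (mean 65.3 ± 12.8), its cofactor Ldb1 60.2 ± 5.83, Lyl1 34.2 ± 2.90, Fli1 36.7 ± 8.20 and Tal1 8.96 ± 1.12. Runx1, needed for the emergence of stem cells, stood at 6.99 ± 1.06 FPKM. Its counted length exceeds that of its longest transcript 2.02 times, and with the latter length its mean would be 14.1. Stem cell regulators that differ among the libraries included Mycn, at 25.7, 25.5, 68.1 and 72.3 FPKM, and Mecom, which encodes EVI1, at 1.34, 1.15, 3.98 and 5.53. Both were higher in replicates 3 and 4.

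Factors known to oppose each other in lineage choice occurred in the same libraries. Gata1, the erythroid and megakaryocytic factor that antagonises PU.1, stood at 18.1, 21.8, 13.1 and 10.7 FPKM (mean 15.9 ± 5.02) and Klf1, its erythroid partner, at 40.8, 54.1, 27.3 and 19.3 (mean 35.4 ± 15.3). Their values were highest in replicate 2. Cebpa, the granulocyte and monocyte factor, stood at 9.06 ± 1.42 FPKM, the opposing repressors Gfi1 and Gfi1b at 17.3 ± 4.27 and 49.2 ± 6.76, and Irf8, which favours monocytes and dendritic cells, at 22.6, 23.6, 17.3 and 9.35. Ikzf1, the lymphoid factor Ikaros, reached 22.5 ± 5.54 FPKM and Gata3, of T cells and stem cells, 6.03 ± 1.72. Factors that fix lymphoid identity were not detected: Ebf1 stood at 0.28 ± 0.28 FPKM, and Lef1, Pax5 and Foxp3 at 0.017 ± 0.015, 0.015 ± 0.020 and 0.0031 ± 0.0036.

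Families of factors differed in how many members were detected. All 7 STAT factors were detected. So were all 6 genes with a Cebp symbol, counting Cebpz, which is not a true C/EBP factor. All 4 genes of the RUNX list were detected as well, namely Runx1, Runx2, Runx3 and Cbfb, a partner that is not itself a RUNX factor. Of listed SOX factors 4 of 14 were detected (28.6%), of FOX factors 12 of 33 (36.4%) and of ETS factors 15 of 26 (57.7%). Over all protein-coding genes the share was 57.5%, so that of the ETS factors was near the background. Of the Hox clusters only Hoxa held detected genes. Its genes summed to 51.8, 49.4, 62.2 and 60.7 FPKM, with Hoxa9 (23.3 ± 5.17), Hoxa7 (17.1 ± 1.40), Hoxa10 (8.77 ± 2.34) and Hoxa5 (3.90 ± 0.71) the 4 members detected of 10. The Hoxb genes summed to 3.31 ± 0.85 FPKM with none detected, and those of the Hoxc and Hoxd clusters to 0.14 ± 0.11 and 0.0041 ± 0.0082. Hoxb4 and Hoxb5, known from work on stem cells, stood at 1.16 ± 0.23 and 1.00 ± 0.63 FPKM. Of 17 transcription factors of other tissues, 10 had no row in the files and 6 lay under 1 FPKM. The exception was Hnf4a, a liver and gut nuclear receptor, at 5.38, 3.31, 9.26 and 8.17 FPKM (mean 6.53 ± 2.70), with none of its sequence words shared with other genes.

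**Figure D3:**
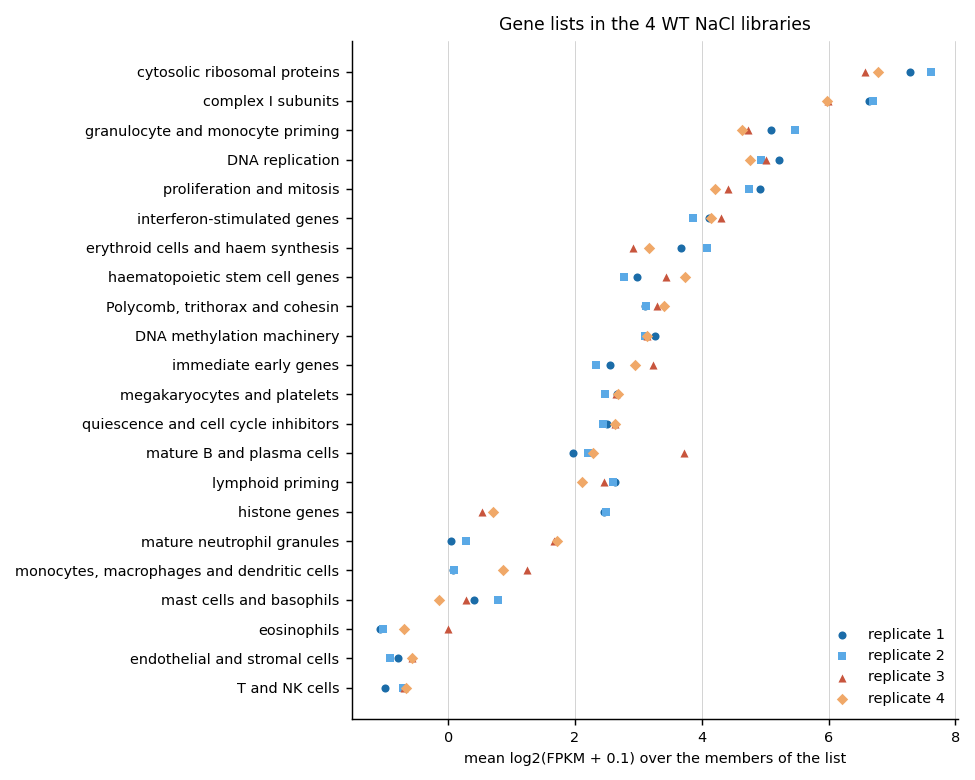
Score of 22 gene lists in each library, the mean log2(FPKM + 0.1) over the members with a row. Granulocyte and monocyte genes score highest among the lineage lists, replicates 1 and 2 lie above 3 and 4 for ribosomal protein and histone genes, and replicate 3 stands alone for mature B and plasma cell genes.

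Genes described for haematopoietic stem cells were detected in 31 of 36 cases, with a median of 7.51 FPKM. The list scored 2.98, 2.78, 3.43 and 3.73 as the mean log2(FPKM + 0.1), so replicates 3 and 4 were the high ones. Among its most abundant members were Ifitm3 and Ifitm1, membrane proteins that limit virus entry (578.6 ± 69.8 and 279.2 ± 29.9 FPKM) and Txnip, a brake on glucose uptake (61.0, 57.9, 112.5 and 167.7). Angpt1, a ligand of the Tie2 receptor, stood at 56.3 ± 21.5 FPKM, the transcription factor Hlf at 20.7, 16.0, 27.3 and 40.9, and Meis1, a partner of Hoxa9, at 25.8 ± 8.72. Fgd5, used as a stem cell reporter locus, stood at 0.75, 0.81, 2.94 and 4.19 FPKM, and thus reached detection only in replicates 3 and 4. Von Willebrand factor, Vwf, of platelet-biased stem cells, stood at 1.43 ± 0.35 FPKM, and Neo1, a netrin receptor, at 0.21 ± 0.17.

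Granulocyte and monocyte priming had the highest median of the lineage lists, 35.5 FPKM, with 27 of 28 genes detected and 10 above 100 FPKM. The lists were not drawn alike. Late genes of this branch stood in separate lists, neutrophil granules (median 1.69) and monocytes, macrophages and dendritic cells (median 0.893). The erythroid and megakaryocyte lists kept late genes such as Alas2 and Gp6. Mpo, the myeloperoxidase of primary granules, stood at 552.2, 608.0, 375.2 and 280.4 FPKM (mean 453.9 ± 152.5, 99.8th percentile). The granule proteases followed, with Elane at 120.6, 406.0, 108.4 and 143.6 FPKM, Ctsg at 262.9, 331.9, 74.2 and 72.2 and Prtn3 at 206.3, 279.4, 104.7 and 119.4. Replicate 2 was the highest for each of these 4 genes. Nkg7, a granule protein also of cytotoxic lymphocytes, reached 470.6 ± 187.7 FPKM and Plac8 352.7 ± 174.4. Lyz2, the lysozyme of myeloid cells, varied little at 277.0 ± 15.7 FPKM. The list scored 5.09, 5.47, 4.73 and 4.63. The lowest members were Cebpe, a factor of late granulocyte maturation (2.28 ± 1.28 FPKM), Ly86, Fcgr2b and Igsf6.

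Among lymphoid priming genes the highest was Dntt, the terminal transferase that adds bases to antigen receptor joints, at 262.1, 245.8, 232.0 and 139.2 FPKM (mean 219.8 ± 55.1, 99.4th percentile). Of the list 18 of 27 genes were detected (66.7%, against 57.5% of protein-coding genes). Beside Cd27 and Flt3, Il12a, a cytokine subunit, stood at 89.6 ± 9.67 FPKM and Ly6d, a surface protein of B-biased lymphoid progenitors, at 55.9, 55.4, 59.9 and 16.5. For Dntt and Ly6d replicate 4 was the low one. Genes of recombination itself were low: Rag2 stood at 2.75 ± 0.74 FPKM and Rag1 at 0.14 ± 0.13. The surrogate light chain gene Igll1 stood at 0.66 ± 1.01 FPKM, most of it from replicate 1 (2.17).

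Megakaryocyte genes were detected in 18 of 22 cases. Beside Nfe2 the most abundant included Pf4, platelet factor 4, at 119.0, 139.7, 48.9 and 56.9 FPKM, Cd9 (50.8 ± 7.61) and Itga2b, the platelet integrin CD41 (44.1 ± 5.59). Gp9, of the von Willebrand receptor, stood at 20.6 ± 4.13 FPKM. Pf4 was higher in replicates 1 and 2, whereas Mmrn1, multimerin of platelet granules, was higher in replicates 3 and 4 (11.8, 7.68, 28.0 and 32.0). Among the 4 members not detected were the platelet tubulin Tubb1 at 0.49 ± 0.31 FPKM and Gp6, the collagen receptor, at 0.0020 ± 0.0023.

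Erythroid and haem synthesis genes were detected in 23 of 28 cases. The carbonic anhydrases Car2 (625.2 ± 52.8 FPKM) and Car1 (160.1, 334.6, 196.8 and 230.4) led, followed by the haem synthesis enzyme Alad (79.9 ± 15.7). Alpha globin Hba-a1 stood at 44.2, 68.2, 4.23 and 14.3 FPKM, and 75.5% of its sequence words are shared with other genes. Of 6 listed haemoglobin chains 4 were detected, with Hbb-bt at a mean of 13.9 FPKM and Hbb-bs at 13.3. Other genes of late erythroid cells were not detected, such as Alas2, the erythroid aminolevulinate synthase of the haem pathway, at 0.40 ± 0.31 FPKM. Slc4a1, the band 3 anion exchanger, stood at 0.16 ± 0.19. The erythroid and haem synthesis list scored 3.67, 4.08, 2.92 and 3.16, again highest in replicate 2.

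Mast cell, basophil and eosinophil genes were few. Of 15 mast cell and basophil genes 4 were detected: Gata2, Cpa3, a mast cell carboxypeptidase (60.0, 68.2, 28.7 and 23.1 FPKM), Mcpt8, a basophil protease (26.0, 34.8, 9.29 and 6.57), and Hdc, the histamine-forming enzyme (1.82 ± 0.69). Mcpt4, of mature connective tissue mast cells, had no count. Prss34, another basophil protease, stood at 0.68, 2.91, 12.3 and 1.29 FPKM, and Prg2, a granule protein of eosinophils, at 4.61, 7.45, 36.1 and 11.1. Replicate 3 was the highest for both.

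Antigens that the lineage depletion targets were, with few exceptions, not detected at the RNA level. Only 2 of 16 were detected. One was Ptprc, the pan-leukocyte gene whose B220 isoform is the depleted one (9.61 ± 1.90 FPKM). The other was Ly6c2 (4.30, 16.7, 32.6 and 18.9), where 23.8% of sequence words are shared with relatives. Cd3e stood at 0.038 ± 0.047 FPKM, Cd3d at 0.13 ± 0.073, Cd3g at 0.11 ± 0.081, Cd8a at 0.016 ± 0.020 and Cd4 at 0.50 ± 0.18. The B cell antigen Ms4a1 (CD20) stood at 0.15 ± 0.22 FPKM. Further members were Ly6g (0.070 ± 0.088), Itgam (1.03 ± 0.19), Klrb1c (0.25 ± 0.043), Cd2 (0.17 ± 0.16), Cd5 (0.55 ± 0.20) and Ly6c1 (0.27 ± 0.14). Of the sequence words of Itgam, Ly6c1 and Klrb1c, 68.3, 46.8 and 21.2% occur in other genes, so their levels may be understated.

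Fuller lists of other cell types were mostly undetected as well. Of 26 T and NK cell genes 4 were detected: Nkg7, the kinase Lck (24.4 ± 2.68 FPKM) and the receptor constant genes Trbc1 and Trbc2 (5.91 ± 4.25 and 2.72 ± 1.04). Of 24 endothelial and stromal genes 8 were detected, led by Vim (41.4 ± 5.53 FPKM), Eng and Tie1, followed by Pecam1, Pdgfrb, Runx2, Tek and Emcn. The stromal genes Col1a1 and Cxcl12 and the endothelial cadherin Cdh5 stood at 0.069 ± 0.023, 0.041 ± 0.044 and 0.011 ± 0.010 FPKM, and Adipoq, Bglap and Dcn had no count. Of 14 neutrophil granule genes 5 were detected. Ngp, a secondary granule protein, stood at 2.13, 2.53 and 22.0 FPKM in replicates 1 to 3 and 25 in replicate 4, Camp, the cathelicidin, at 1.42, 2.42, 12.03 and 11.4, and S100a8 at 6.53, 17.9, 29.9 and 42.5. These 3 genes were highest in replicates 3 and 4, and the score of the list was 0.04, 0.28, 1.67 and 1.72. Of 25 genes of monocytes, macrophages and dendritic cells 8 were detected, and the list scored 0.08, 0.09, 1.24 and 0.86. C1qa, of tissue macrophages, stood at 0.022, 0, 1.88 and 1.77 FPKM. The part of mature cells in the values of replicates 3 and 4 was not tested.

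Immunoglobulin genes had the highest means of the named genes, carried by replicate 3; in replicates 1 and 2 B2m exceeded Igkc. The kappa constant gene Igkc stood at 2725, 2069, 35950 and 5811 FPKM and the mu constant gene Ighm at 709.1, 594.4, 11010 and 1835. Jchain, which joins secreted IgM, stood at 154.2, 162.2, 1014 and 177.9 FPKM, and Mzb1, a chaperone of antibody-secreting cells, at 6.37, 9.72, 42.9 and 8.81. Xbp1, the plasma cell factor of the secretory pathway, stood at 50.2, 41.9, 120.6 and 64.4 FPKM and Sdc1 (CD138) at 7.93, 7.39, 24.5 and 10.1. Each was highest in replicate 3. Cd74, of antigen presentation, also followed replicate 3 (78.6, 84.1, 584.8 and 199.6). Ms4a1 and Pax5, of mature B cells, were not detected: Ms4a1 stood at 0, 0.012, 0.47 and 0.098 FPKM, also highest in replicate 3, and Pax5 at 0.018, 0.042, 0 and 0. Of the 20 genes of B and plasma cells 12 were detected (60.0%), near the 57.5% of all protein-coding genes. The list scored 1.97, 2.20, 3.72 and 2.29.

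The variable segments were unevenly used. In replicate 3, Ighv11-2 took 60.4% (95% Wilson interval 60.1 to 60.6) of 153440 heavy chain variable counts, and in replicate 4 it took 47.9% (47.3 to 48.5) of 29013. In replicate 1 it took 19.0% (18.3 to 19.7) of 11695, behind Ighv9-3 at 21.4%. In replicate 2 the leading segment was Ighv6-3, with 16.1% (15.5 to 16.8) of 11419. Among kappa segments Igkv14-126 led with 22.0% in replicate 1, 36.9% in replicate 3 and 55.9% in replicate 4, and Igkv4-53 with 15.6% in replicate 2. Of the sequence words of Ighv11-2, 50.6% occur in other genes, against 5.79% for Igkv14-126, so reads may be divided among related heavy chain segments. These intervals cover counting error only, since the amplified reads carry no molecular identifiers. The pair of Ighv11-2 and Igkv14-126 is known from the antibodies to phosphatidylcholine that B-1a cells make without prior immunisation. Which cells gave these reads was not tested.

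Proliferation was broadly represented. All 22 genes of mitosis, all 24 of DNA replication and all 14 cyclins and their kinases were detected. Replication genes had a median of 32.3 FPKM, with the helicase subunits Mcm6 (172.4 ± 35.1), Mcm3 (144.5 ± 26.1) and Mcm7 (125.7 ± 15.4) and the clamp Pcna (120.3 ± 25.2) the highest. Among mitotic genes Ccnb2 stood at 157.5, 136.5, 111.3 and 83.5 FPKM and Cdc20 at 148.2, 125.1, 102.0 and 82.0. The proliferation marker Mki67 stood at 15.9, 19.0, 7.82 and 9.92 FPKM (mean 13.2 ± 5.19). For these 3 genes replicates 1 and 2 lay above replicates 3 and 4. Cdk4 was the highest kinase (254.0 ± 52.6 FPKM), and among the D cyclins Ccnd2 (43.9 ± 4.13) and Ccnd3 (31.9 ± 4.58) far exceeded Ccnd1 (1.77 ± 0.46). With the longest transcript in place of all exons Ccnd3 would stand at 132, above Ccnd2 at 65.3 and Ccnd1 at 2.23.

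Histone genes separated the libraries most clearly. Their 61 listed members scored 2.46, 2.49, 0.54 and 0.71 and summed to 1130, 1164, 430.0 and 398.7 FPKM. Hist1h2bj stood at 50.9, 51.6, 6.14 and 5.82 FPKM and Hist1h4n at 46.1, 46.2, 4.71 and 5.43. Most histone transcripts carry no poly(A) tail, and how the cDNA was primed is not given in the sources used here. Whether this bears on the difference was not tested.

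Genes of quiescence were present beside those of division, with 17 of 20 detected. The inhibitors of cell division were led by Cdkn2d (54.4 ± 10.6 FPKM) and Cdkn2c (21.6 ± 6.05), both of the INK4 family. Cdkn1c, which encodes the p57 inhibitor known from quiescent stem cells, stood at 5.24, 3.52, 8.01 and 8.12 FPKM (mean 6.22 ± 2.24), and p21, Cdkn1a, at 13.4, 12.1, 6.55 and 4.83. Replicates 3 and 4 were thus the higher ones for Cdkn1c and the lower ones for Cdkn1a. Cdkn2a and Cdkn2b, the senescence-related members of the INK4 locus, stood at 0.042 ± 0.071 and 0.0040 ± 0.0081 FPKM.

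Of 20 genes of the DNA methylation machinery, the pathway on which azacitidine and the DNMT3A mutation of the study act, 18 were detected. Dnmt1, the maintenance methyltransferase, stood at 36.8, 28.8, 58.7 and 42.2 FPKM (mean 41.6 ± 12.7) and its guide Uhrf1 at 52.3 ± 8.15. The de novo enzyme Dnmt3b stood at 22.7, 17.8, 24.9 and 26.5 FPKM (mean 23.0 ± 3.79), and Dnmt3a, wild-type in these cells, at 6.06, 5.42, 4.86 and 5.83 (mean 5.54 ± 0.53, 74.8th percentile). Dnmt3b exceeded Dnmt3a in each library. The counted sequence of Dnmt3a spans 16642 bases against 9685 in its longest transcript, and with the latter length its mean would be 9.53 FPKM, against 27.2 for Dnmt3b treated alike. Dnmt3l, the inactive cofactor, was near absent (0.12 ± 0.066). The Tet dioxygenases, which oxidise methylated cytosine, were low: Tet3 stood at 2.01 ± 0.66 FPKM, Tet1 at 1.77 ± 0.42 and Tet2 at 1.93, 1.88, 1.17 and 1.97. Idh2, whose product is a cofactor of those enzymes, was the highest of the list at 182.1 ± 23.5 FPKM.

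The other chromatin regulators were expressed almost without exception, 29 of 30 Polycomb, trithorax and cohesin genes being detected. The highest were the cohesin subunit Smc1a (44.9 ± 2.75 FPKM), Men1 (44.4 ± 9.63) and Bap1 (37.0 ± 9.46); Ezh2, the Polycomb methyltransferase, stood at 18.2 ± 1.81 and Bcorl1, the only member not detected, at 0.47 ± 0.066. Of mouse genes listed for those mutated in human clonal haematopoiesis, 35 of 36 were detected. They ran from Calr (231.4 ± 17.6 FPKM), Npm1 (219.2 ± 55.9) and U2af1 (187.6 ± 41.2) down to Cbl (1.87 ± 0.33) and Tet2. The listed gene not detected was Zrsr1, a splicing factor (0.81 FPKM). Whether it is the direct counterpart of a mutated human gene was not checked.

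Interferon-stimulated genes were detected in 37 of 41 cases. The class I genes of antigen presentation led: B2m stood at 3192, 3157, 2618 and 2412 FPKM (mean 2845 ± 390.0), H2-D1 at 1390 ± 105.1 and H2-K1 at 1080 ± 65.4, although 26.9 and 22.8% of the sequence words of H2-D1 and H2-K1 occur elsewhere. The classical virus-induced genes were far lower, with Isg15 at 16.2 ± 3.33 FPKM, Ifit1 at 6.45 ± 1.33 and Rsad2 at 4.10 ± 0.53. Mx1, whose promoter drives the Cre transgene of the study, stood at 0.32 ± 0.072 FPKM and was not detected. Immediate early genes, which are switched on within minutes of a stimulus, were detected in 19 of 24 cases. Beside Myc the highest was Ier2 (143.8 ± 33.1 FPKM). Jun stood at 12.8, 6.70, 58.7 and 51.6 FPKM and Fos at 13.3, 3.69, 39.98 and 23.2, both highest in replicate 3 and lowest in replicate 2. The Egr family was low, with Egr1 at 7.70 ± 4.66 and Egr3 at 0.0056 ± 0.0065 FPKM.

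Genes that import and activate azacitidine were present in these vehicle-treated cells, 16 of 21 being detected. The nucleoside transporter Slc29a1 (ENT1) stood at 40.7 ± 4.34 FPKM. The uridine-cytidine kinases that phosphorylate the drug, Uck1 and Uck2, stood at 36.7 ± 3.11 and 20.8 ± 2.22, and the reductase subunits Rrm1 and Rrm2 at 33.8 ± 5.73 and 76.2 ± 22.6. Cda, the cytidine deaminase that inactivates it, stood at 0.092 ± 0.071 FPKM, and the concentrative transporters Slc28a1 and Slc28a3 at 0.018 ± 0.021 and 0.00078 ± 0.0016. A further concentrative transporter, Slc28a2, was detected at 17.8 ± 1.20 FPKM, with 46.3% of its sequence words shared with other genes. Glycolytic genes were all detected (19 of 19), led by Ldha (328.4 ± 49.0 FPKM) and Pkm (221.9 ± 39.7). Gapdh stood at only 4.77 ± 3.22 FPKM, and 28.1% of its sequence words recur in other genes; Gapdh is known for its many processed pseudogenes.

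The 20 most abundant named genes, with ribosomal and mitochondrial genes, pseudogenes and unnamed models left out, were Igkc, Ighm, Igkv14-126, B2m, Fth1, Ubb, Igkv19-93, Gpx1, Ighv11-2, H2-D1, Stmn1, Eif5a, H2-K1, Ptma, Tmsb4x, Cfl1, Eef1a1, Calm2, Pfn1 and H3f3b. Without replicate 3 the means of Igkc, Ighm and Igkv14-126 would be 3535, 1046 and 896.5 FPKM, those of Igkv19-93 and Ighv11-2 131.0 and 263.0, and that of B2m 2920. The highest row of all was the unnamed model Gm23935, a miRNA model of 57 bases within the gene Zc3h7a, at 41020, 36790, 25070 and 26940 FPKM. Besides the 5 immunoglobulin genes they serve iron storage (Fth1, 2057 ± 405.7 FPKM), defence against peroxide (Gpx1, 1698 ± 543.8), the cytoskeleton (Stmn1, 1147 ± 343.7; Tmsb4x, 1025 ± 285.1) and translation (Eif5a, 1143 ± 241.9). The 100 most abundant genes held 28.4, 28.8, 36.6 and 26.1% of the summed FPKM, so replicate 3 was the most concentrated. Without immunoglobulin, ribosomal protein and mitochondrial genes these shares were 28.1, 28.1, 23.4 and 23.8%. Ribosomal protein genes were detected in 79 of 81 cases with a median of 160.0 FPKM, and the list scored 7.29, 7.61, 6.58 and 6.78. Of the ribosomal protein genes 54 share at least 20% of their sequence words with other genes, as do 44 of 241 genes named here, among them Eef1a1, Ubb, Pkm, Mcm7, Lyz2 and Npm1. Transcripts of the Y chromosome were detected (Eif2s3y 15.9 FPKM, Ddx3y 11.9), while Xist stood at 0.019.

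**Figure D4:**
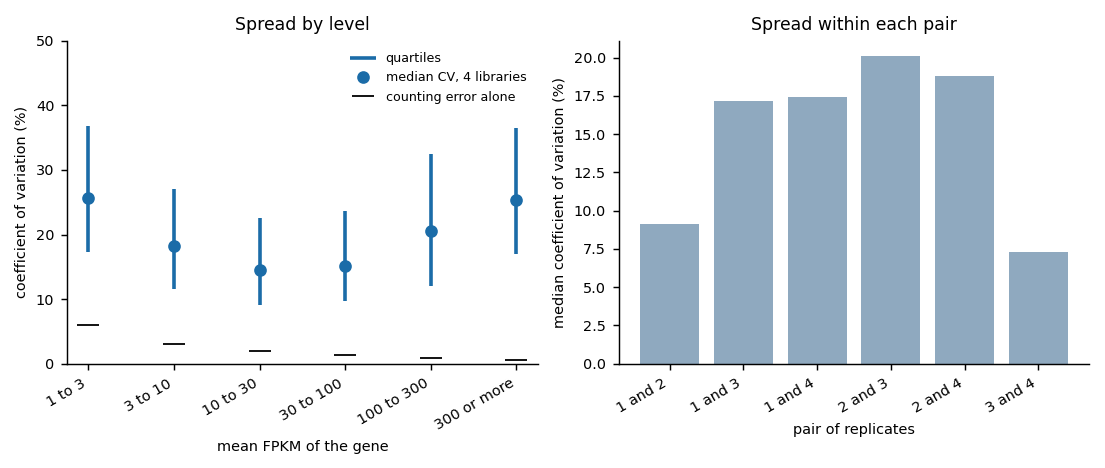
Left, median coefficient of variation over the 4 libraries (points; bars, quartiles over genes) by class of mean FPKM, with the value from counting error alone (dashes). Right, median coefficient of variation within each pair of replicates: it is 9.13% for replicates 1 and 2, 7.28% for replicates 3 and 4 and 17.2 to 20.1% for the other 4 pairs.

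Over 12239 genes with a mean of 1 FPKM or more, the median coefficient of variation between libraries was 18.4%, where counting error alone gives 2.55%. The common dispersion estimated by edgeR corresponded to a biological coefficient of variation of 30.7%. The spread was 25.6% for genes at 1 to 3 FPKM, fell to 14.5% at 10 to 30 and returned to 25.4% at 300 or more, where counting error is 0.536%. Without replicates 1 and 2 the median was 7.28%, and without replicates 3 and 4 it was 9.13%. These values rest on 2 libraries each and are not directly comparable with the 18.4% from 4. The other pairs of libraries gave 17.2 to 20.1%. Among the least variable of 5153 genes at 10 FPKM or more were Nemf, of ribosome quality control (10.2 ± 0.066 FPKM, coefficient of variation 0.644%), Polr3d, a subunit of RNA polymerase III (1.23%), and Chtop, of mRNA export (1.30%). The 10 most variable were all immunoglobulin variable segments, 9 of them with a coefficient of variation of 200%, the value that expression in 1 library of 4 gives. Apart from such segments the most variable were Jchain (113%), Cldn13, an erythroid claudin (13.1, 29.2, 2.69 and 3.12 FPKM), Mzb1 (102%), Cd74 (78.6, 84.1, 584.8 and 199.6 FPKM), Prg2 (97.5%) and Ngp (95.1%). The other 4 of these 10 were histone genes, Hist1h2bb, Hist1h4n, Hist1h2bj and Hist1h2bm, all high in replicates 1 and 2.

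**Figure D5:**
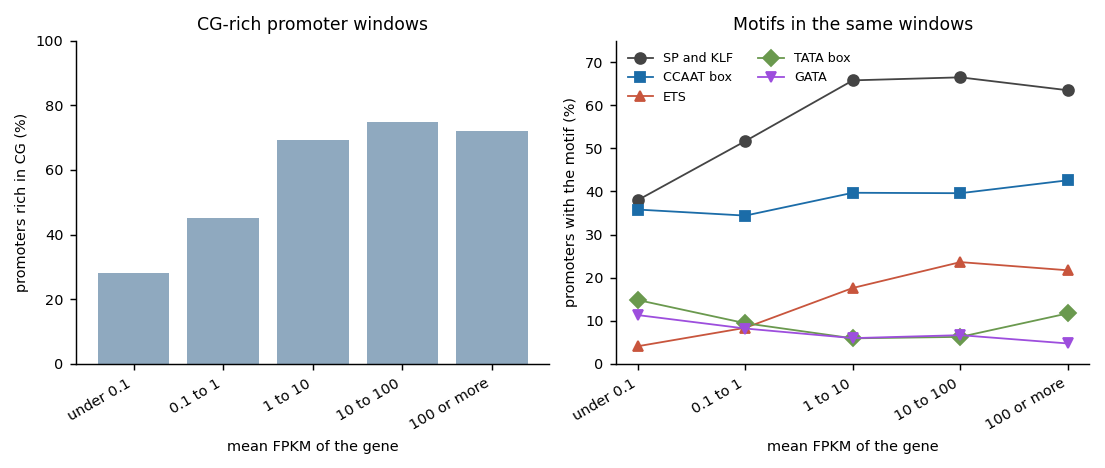
Left, share of promoter windows rich in CG by class of mean FPKM of the gene. Right, share of the same windows holding each motif on either strand: the ETS motif is found in 4.07% of windows of genes under 0.1 FPKM and in 23.6% at 10 to 100, and the TATA box in 14.8% and 6.24%.

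Promoter composition followed the level of expression. Of 16970 protein-coding genes 13025 had a window in the RefSeq table, from 250 bases upstream to 50 downstream of a start, and a window counted as CG-rich at a GC content of 50% or more and an observed over expected CG ratio of 0.6 or more. CG-rich windows made up 28.1% of those of genes under 0.1 FPKM, 45.0% at 0.1 to 1, 69.2% at 1 to 10, 74.8% at 10 to 100 and 72.2% at 100 or more, against 58.1% in all. Kit and Flt3 fell on the CG-rich side, and Cd34, Mpo and Dntt did not. The motif CCGGAAG, bound by members of the ETS family such as Fli1, occurred in 4.07% of windows in the lowest class. At 10 to 100 FPKM it occurred in 23.6% (15.1% in all). It holds a CG itself, and the median observed over expected CG ratio of these classes was 0.359 and 0.796. The TATA box TATAAA was most frequent in the lowest class (14.8%) and again in the highest (11.7%), with 5.90% at 1 to 10 FPKM. The GATA motif AGATAA occurred in 11.3% of windows in the lowest class and 4.71% in the highest. Each motif was searched on both strands, and a match describes letters and not binding. Motif shares were not compared at matched base composition.

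Lists of genes differed in composition. Of promoters of granulocyte and monocyte priming genes 6 of 23 were CG-rich, of lymphoid priming genes 7 of 23, of megakaryocyte genes 1 of 15 and of neutrophil granule genes 0 of 13, although the first of these lists had a median expression of 35.5 FPKM. Polycomb, trithorax and cohesin genes had 23 of 25, mitotic genes 17 of 19 and transcription factors 55 of 91. Among ribosomal protein genes 49 of 61 were CG-rich and 24 held the ETS motif. Promoters of interferon-stimulated genes were CG-rich in 4 of 33 cases.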

How the data were processed

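RNA was measured by RNA-seq of amplified cDNA from sorted LSK cells. Per the submitters' processing notes, HISAT2 2.0.5, featureCounts 1.6.2 and edgeR 3.26.6 were used with GRCm38/mm10. The settings for strand and for reads that map to several places are not given in the sources used here. The deposited counts are whole numbers of reads per feature as the authors counted them, without normalization. The deposited FPKM values equal the authors' counts divided by the counted length and by a single library size for each library, checked on the files. The lengths as deposited are those of all exons joined: 95.0% of 30100 genes with a GENCODE M21 symbol match exactly, which makes the FPKM of genes with many or long alternative exons low. Total counts were 39303293 to 45429603 for each library, and intervals and floors cover counting error only, since reads carry no molecular identifiers.

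Means, SDs, ranks and list scores were computed from the FPKM values (Python 3.11.15, pandas 2.3.3), and the spread from the counts with TMM library sizes (R 4.3.3, edgeR 4.0.16), a step tested on simulated data. Shared sequence is the share of 31-base words of a gene's transcripts found in other genes. As these libraries form a single group, no comparison between groups was made. The libraries, gene lists and rules were chosen with earlier results of these data known. Named genes are the gate markers, the 20 highest, the 10 most and 10 least variable, up to 6 highest and 4 lowest members of a list or family, the antigens of the depletion and a fixed set of regulators; others were named for their known roles after their values were seen. Alternatives were the detection level, TPM, CPM, pseudocount, scaling, filters, the longest transcript's length and leaving out libraries. A few members of the lists are counted in totals but not reported here by name. Libraries of other genotypes and treatments were not used here.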

Additional observations from a re-analysis of the deposited data

Results flagged for a closer look

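In 27 of 322 sets of 4 values tested, 1 library lay far from the others by Dixon's ratio, which chance alone gives in about 1 of 20 groups. Of these sets, 24 of 242 were genes named above, and the most variable of them were named for their spread.

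Replicate 3 stood alone in its immunoglobulin share, 5.45% of gene counts, and in the genes of antibody-secreting cells. Its values were 35950 FPKM for Igkc, 11010 for Ighm, 4967 for Ighv11-2, 6987 for Igkv19-93, 1014 for Jchain, 42.9 for Mzb1 and 24.5 for Sdc1. It was also high for Gapdh (9.55 FPKM), the nucleoside transporter Slc28a2 (19.6) and the cadherin Cdh2 (0.070, still under detection), and low for the dioxygenases Tet1 (1.14) and Tet2 (1.17).

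Replicate 2 was high for the granule protease Elane (406.0 FPKM), the myeloid surface protein Igsf6 (5.69), the T cell receptor gene Trbc1 (12.2) and the splicing factor Zrsr1 (1.11). It was low for Hhex (121.3 FPKM) and for the megakaryocyte and platelet list (a score of 2.48). Of genes near 0 it was high for Cdkn2a (0.148) and Slc28a3 (0.0031).

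Replicate 1 was high for Igll1 (2.17 FPKM) and for Cdkn2b (0.016, the single library with a count), and low for Pdgfrb (8.68) and for the T and NK cell list (a score of -1.0). Replicate 4 was low for Ly6d (16.5 FPKM) and high for the Y-linked gene Ddx3y (15.4).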

How the results depend on the processing

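The number of detected genes stayed between 9580 and 15053 over all alternatives (11288 to 11364 with 1 library left out), and that of transcription factors between 73 and 105. The median over the fixed lists of their median log2 level was 2.81 and moved to 4.21 in TPM, 5.09 in CPM, 3.16 with the longest transcript's length and 2.50 without replicates 3 and 4; the order of the 33 lists kept a Spearman rho of 0.97 or more. The median percentile of 25 fixed genes (86.3) was 89.2 in CPM. The 100 most abundant genes held 15.1% of gene counts, against the share of FPKM given above. The median coefficient of variation (18.4%) was 26.5% without the filter, 14.9% at a mean of 10 FPKM or more, 16.6 to 18.2% with 1 library left out, 7.28% without replicates 1 and 2, 9.13% without 3 and 4, 17.2% with only 1 and 3, 17.4% with only 1 and 4 and 20.1% with only 2 and 3. The biological coefficient of variation (30.7%) was, in the same order, 37.1% without the filter, 28.6 to 32.0% with 1 library left out, 20.7% without replicates 1 and 2, 18.9% without 3 and 4, 32.2% with only 1 and 3, 36.7% with only 2 and 3 and 32.7% with only 2 and 4. The longest transcript's length and the pairs were chosen after seeing the data, and the cause of these shifts was not tested. No paired analysis was possible because the libraries form a single group and no test was made. Depth limits only levels near the floor of 3 counts.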
